A study of Mus musculus with 6 samples.

Results

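Resting basophil-like cells were examined within single-cell RNA profiles of Lin- HSPC, the haematopoietic stem and progenitor fraction left after cells with markers of mature blood lineages are removed, from 3 mice with the genotype Stag2 KO (KO1, KO2 and KO3) and 3 mice with the genotype Stag2 wt (WT1, WT2 and WT3). A member was a cell with at least 500 detected genes, at least 3 unique molecular identifiers (UMIs, counts of captured RNA molecules) summed over Ms4a2, Fcer1a, Cd200r3 and Cyp11a1, and no UMI of the cell cycle genes Mki67, Top2a, Cdk1, Ccnb1, Ccnb2 and Ube2c or of the T cell genes Cd3d, Cd3e and Cd3g. This rule found 4580 cells among 24307 cells with at least 500 genes and 25636 deposited cells. The members, chosen by their measured UMIs of these genes, numbered 777, 414 and 793 in KO mice and 411, 825 and 1360 in WT mice, in the order of their numbers. Cells that met the basophil part of the rule but had at least 3 UMIs of the cell cycle genes served as dividing basophil-like cells (155, 79 and 137 in KO and 81, 199 and 270 in WT), and 15105 cells without any UMI of the 4 basophil genes served as the other cells of the fraction. The labels give the genotype and no further allele, Cre driver, age or treatment, and no agent was named for either genotype.

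Basophils are granulocytes that carry the high-affinity IgE receptor, store histamine and proteases in granules, and release lipid mediators, chemokines and interleukin 4 when the receptor is crosslinked or when alarm cytokines such as interleukin 33 reach them. They arise in the bone marrow from progenitors that express Gata2 and Cebpa, and as nearly mature cells they can lack the lineage markers used for depletion. Stag2 encodes one of the alternative subunits of cohesin, the ring complex that holds sister chromatids together and folds chromatin into loops, and Stag1 encodes the other. The design sets Stag2 KO against Stag2 wt mice.

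Counts were summed over the members of each mouse and are given as CPM, that is, scaled to the total UMIs of those members. Stag2 (chrX:42149317-42277185, plus strand, GENCODE release M21 on GRCm38) had 21.3, 18.2 and 21.52 CPM in KO and 59.3, 46.3 and 51.7 CPM in WT. The groups did not overlap, and the log2 fold change of KO over WT was -1.43 ± 0.14, edgeR adjusted p = 8.91e-06. The deleted part of Stag2 is not named in the labels, and 3' tags can lie outside it, so the remaining counts cannot be read as intact transcript. Stag1 had 39.1, 30.02 and 36.7 CPM in KO and 31.4, 27.8 and 27.7 CPM in WT and did not pass the test (0.22 ± 0.14, edgeR adjusted p = 0.405).

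The members carried the granule and mediator genes of basophils that the rule did not use. Mcpt8, a basophil granule protease, had 13230, 11946 and 13067 CPM in KO and 18875, 19839 and 25307 CPM in WT, against a mean of 838 CPM in KO and 818 CPM in WT in cells with at least 3 CD3 UMIs, where it can come from free RNA or from doublets. Prss34, a second basophil protease, had 20694, 18601 and 20824 CPM in KO and 25515, 19539 and 32843 CPM in WT. Cpa3, the granule carboxypeptidase, had 1608, 1566 and 1613 CPM in KO and 1588, 1604 and 2069 CPM in WT. Mast cell genes differed: the proteases Mcpt4 and Mcpt2 were at 0 in every mouse, and Cma1 stayed between 0.714 and 3.22 CPM. Slc6a4, of the same list, had 4.62, 16.6 and 10.3 CPM in KO and 43.6, 42.3 and 21.6 CPM in WT. Gzmb had 53.6, 67.5 and 19.4 CPM in KO and 12.1, 49.1 and 26.6 CPM in WT. Kit had 12.6, 9.11 and 8.49 CPM in KO and 7.85, 12.1 and 8.76 CPM in WT. Of 14 listed mast cell genes, the 10 with a deposited symbol summed to 80.1, 104 and 48.8 CPM in KO and 76.4, 121 and 67.7 CPM in WT. CD3 cells held 94.5, 78.2 and 82.1 CPM of them in KO and 42.7, 92.8 and 71.3 CPM in WT. The label of basophil-like cells therefore rests on the granule genes, which matched it in all 6 mice. Most members had UMIs of every rule gene, namely 64.5%, 66.9% and 67.3% of KO members and 68.1%, 69.7% and 50.7% of WT members, and the median sum of the 4 genes was 14, 15 and 15 UMIs in KO and 16, 17 and 11 UMIs in WT. The threshold of the rule cut through few cells, with 21, 12 and 15 KO members and 9, 12 and 45 WT members at exactly 3 UMIs and 27, 12 and 11 KO cells and 10, 14 and 54 WT cells left out at 2 UMIs.

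Because the rule used them, its 4 basophil genes are described without a test. Fcer1a, the IgE-binding chain of the receptor, had 1244, 1179.8 and 1331 CPM in KO and 2622, 2739 and 2601 CPM in WT, so that every KO mouse lay below every WT mouse. Ms4a2, the beta chain that amplifies the signal of the same receptor, had 994, 926 and 886 CPM in KO and 851, 891 and 825 CPM in WT. Cd200r3, an activating receptor of basophils and mast cells, had 993, 955 and 1055 CPM in KO and 1198, 1246 and 1164 CPM in WT, also without overlap. Cyp11a1, which starts steroid synthesis from cholesterol, had 535, 580 and 609 CPM in KO and 884, 816 and 763 CPM in WT, again without overlap. A version of the rule without Fcer1a is among the alternatives below.

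The members made up 17.4, 17.02 and 21.1% of the cells with at least 500 genes in the KO mice, against 16.7, 18.7 and 20.1% in the WT mice, each in the order of their numbers. The mean share was 18.5% in KO and 18.5% in WT, the groups overlapped, and the share is described only because the same genes chose the cells. The likeness of the means depends on depth: among cells with at least 2000 UMIs the shares were 16.8, 17.3 and 20.9% in KO and 14.9, 17.7 and 12.04% in WT, with the lowest value in WT3. The members were small in UMIs: the median per cell was 3465, 3810 and 3500 in KO and 2709, 2826 and 1865 in WT, with no overlap between the genotypes, and WT3 stood apart as the shallowest library. Across all cells with at least 500 genes the medians were 6048, 5814.5 and 6040.5 in KO and 4389.5, 5019 and 3659.5 in WT, so the libraries differed in the same direction, and library depth and the RNA content of the members cannot be told apart. Mitochondrial genes took 2.09% to 2.23% of the UMIs of KO members and 1.67% to 2.05% of those of WT members. Between 11 and 48 cell barcodes were shared by each pair of libraries, all cells counted. Summed over members the depth was 3246486, 1865632 and 3299332 UMIs in KO and 1400683, 2809980 and 3425818 UMIs in WT.

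**Figure D1:**
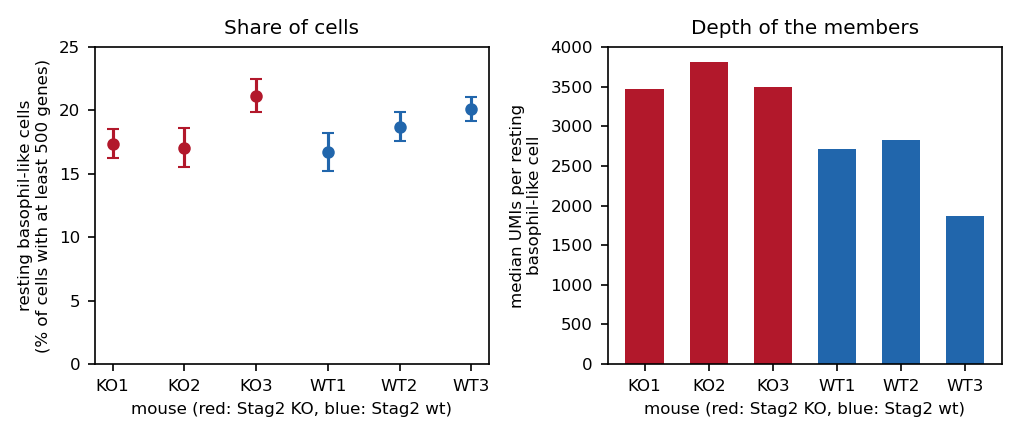
Share of resting basophil-like cells among cells with at least 500 genes, in percent with 95% exact binomial intervals (left), and median UMIs per member (right), for each mouse. The shares of the 6 mice span 16.7% to 21.1% and those of the genotypes overlap, while the median UMI count lies between 3465 and 3810 in KO and between 1865 and 2826 in WT.

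KO and WT members differed in many genes, more of them lower than higher in KO. Of 8949 genes tested with edgeR's quasi-likelihood test, 791 had a Benjamini-Hochberg adjusted p of at most 0.05, which is 8.84%, with 254 higher (2.84%) and 537 lower (6.0%) in KO. The genotypes did not overlap in CPM for 29.4% of the tested genes, and the median log2 fold change over all of them was 0.01. With cells of at least 2000 UMIs 291 genes passed, 67 higher and 224 lower. Titles carry a code whose prefix is XA in KO1, KO2, KO3 and WT1 and differs in WT2 and in WT3, and among the XA mice alone, where a single WT mouse is assumed to vary like the others, 231 genes passed (38 higher and 193 lower), while the prefix as a covariate left 187 (26 higher and 161 lower). The labels do not say what the prefix stands for, and it is tied in part to the genotype. Coded as XA or not, the covariate leaves the genotype effect to KO1, KO2 and KO3 against WT1, the contrast of the XA mice. In calls lost in these settings, the prefix and the use of a single WT mouse cannot be told apart. Leaving out 1 library gave between 491 genes (without KO1) and 785 genes (without WT1), with 511 genes without KO3 and 684 without the shallow library WT3.

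**Figure D2:**
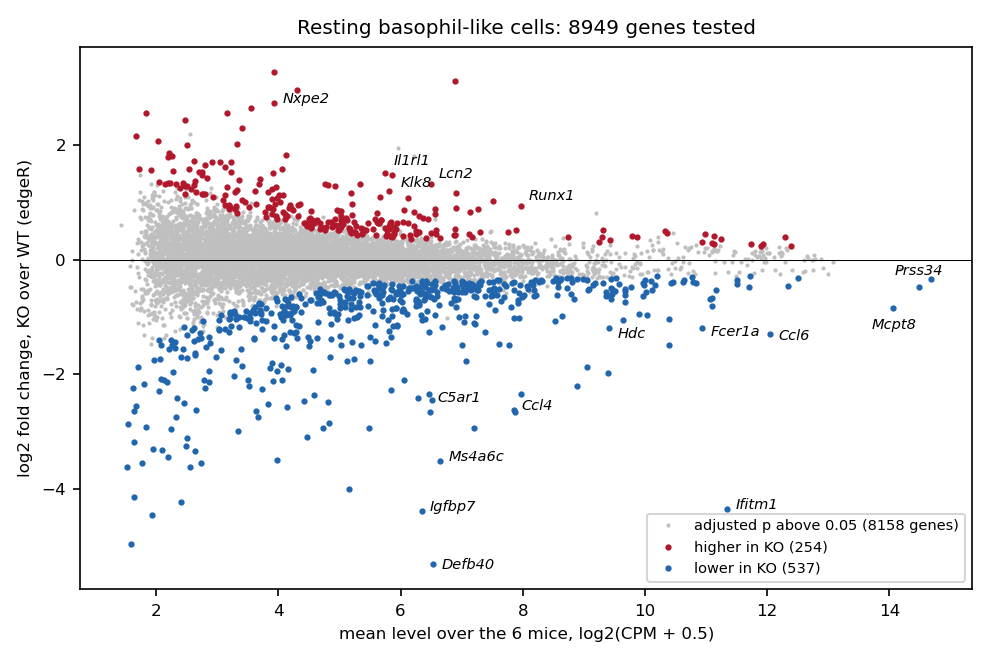
Log2 fold change of KO over WT against the mean level, log2(CPM + 0.5), for the 8949 genes tested in resting basophil-like cells, with genes higher in KO (254) in red and lower in KO (537) in blue. The strongest falls reach -5.31 (Defb40), and Ifitm1 combines a high level with a change of -4.34.

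Ifitm1 had one of the largest falls among abundant genes and encodes a small interferon-inducible membrane protein (chr7:140967221-140969825, plus strand). It had 262, 227 and 297 CPM in KO and 5282, 5109 and 4489.7 CPM in WT, a level 18.9-fold higher in WT than in KO (-4.34 ± 0.11, edgeR adjusted p = 4.42e-13). After each member was thinned to 1000 UMIs, which removes the depth difference, an Ifitm1 UMI was found in 11.8, 10.02 and 12.02% of KO members and 84.2, 84.6 and 80.51% of WT members. The shares in CD3 cells were 1.19, 1.48 and 1.28% in KO and 4.002, 3.79 and 8.20% in WT. Thinning left out 5, 1 and 1 KO members and 3, 3 and 34 WT members with fewer UMIs, and the unthinned shares were 21.4, 21.3 and 22.2% in KO and 93.2, 93.2 and 89.4% in WT. Most WT members therefore carried the transcript, and a minority of KO members did. Among genes of the same family, Ifitm3 and Ifitm2 were also lower, and Ifitm6 did not pass, with 6.78, 9.11 and 8.79 CPM in KO and 7.14, 10.3 and 22.8 CPM in WT (adjusted p = 0.0999). Ifitm3 had 115, 84.2 and 112 CPM in KO and 171, 281 and 238 CPM in WT (-1.25 ± 0.16, edgeR adjusted p = 7.74e-05). Ifitm2 had 944, 789 and 926 CPM in KO and 1087, 1165 and 1131 CPM in WT (-0.45 ± 0.09, edgeR adjusted p = 0.00411). Ly6e, a surface protein that interferon also induces, had 918, 875 and 984 CPM in KO and 1623, 1795 and 1878 CPM in WT (-1.03 ± 0.09, edgeR adjusted p = 1.33e-06).

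The 250 bases upstream of the RefSeq start sites of the Ifitm genes (GRCm38.p6) are shown because these 3 genes lie near each other on chromosome 7 and were all lower in KO, to unequal degrees. Capitals mark matches of an interferon-stimulated response element, searched on both strands as GAAA, any 2 bases and GAAA again, and of a GATA motif, searched as AGATAA and TGATAA on both strands.
Ifitm1 (chr7:140967826-140968075, plus strand): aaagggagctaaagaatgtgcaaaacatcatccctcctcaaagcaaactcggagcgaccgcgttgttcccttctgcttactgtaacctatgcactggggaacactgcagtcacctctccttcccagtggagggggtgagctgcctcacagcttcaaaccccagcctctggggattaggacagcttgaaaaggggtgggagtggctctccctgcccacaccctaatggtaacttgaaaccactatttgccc
Ifitm2 (chr7:140955962-140956211, minus strand): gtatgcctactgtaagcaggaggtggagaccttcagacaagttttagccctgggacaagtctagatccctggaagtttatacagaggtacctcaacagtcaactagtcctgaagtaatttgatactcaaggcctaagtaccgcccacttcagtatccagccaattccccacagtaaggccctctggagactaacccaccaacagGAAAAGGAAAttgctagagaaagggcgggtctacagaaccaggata
Ifitm3 (chr7:141010745-141010994, minus strand): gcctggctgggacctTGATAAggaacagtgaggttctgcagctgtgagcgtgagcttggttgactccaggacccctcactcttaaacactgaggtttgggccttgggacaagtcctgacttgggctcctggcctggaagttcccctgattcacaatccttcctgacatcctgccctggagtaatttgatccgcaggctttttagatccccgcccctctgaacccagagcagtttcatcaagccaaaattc
The response element matched once in Ifitm2, 46 bases before the start, and not in the windows of Ifitm1 and Ifitm3, while 2.98% of 32851 windows of the same length in the RefSeq table held a match. The GATA motif matched once in Ifitm3 and in 16.6% of all windows. A match is a description of letters only, and no match says only that these letters are not in this window. The window of Ifitm1 lies inside the GENCODE bounds given above for this gene, so the bases before its GENCODE start were not searched.

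The gene lists here and below were chosen with earlier results of these data known, so their directions are not independent of them. Of 17 tested interferon-inducible genes, the median log2 fold change was -0.51. In KO 7 were lower and none was higher, beside 6.0% lower and 2.84% higher over all tested genes. Beside Ifitm1, Ifitm2, Ifitm3 and Ly6e these were Usp18 (-1.52), Ifit1 (-2.96) and Isg20 (-0.76), each at most 34.2 CPM in any mouse. The other 10 did not pass. Among them Bst2, an antiviral membrane protein, had 92.4, 97.6 and 98.505 CPM in KO and 90.7, 104 and 98.7 CPM in WT. The Ifitm2 call was lost with the title prefix as a covariate (adjusted p = 0.132).

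Granule genes fell in part. Of 12 tested granule protein genes, 5 were lower and 1 was higher in KO, beside 6.0% lower and 2.84% higher over all tested genes. The median log2 fold change of the 12 was -0.25. Hdc, which makes histamine from histidine, had 412, 446 and 453 CPM in KO and 729.6, 1013 and 1035 CPM in WT (-1.19 ± 0.12, edgeR adjusted p = 1.02e-05), without overlap of the genotypes. Mcpt8 fell by 0.85 on the log2 scale (SE 0.09, edgeR adjusted p = 1.11e-05), again with every KO mouse below every WT mouse. Srgn, the proteoglycan core that packs granule contents, had 1716, 1455 and 1587 CPM in KO and 1821, 1899 and 2082 CPM in WT (-0.39 ± 0.08, edgeR adjusted p = 0.00808, and 0.0548 without KO2). Prss34 was lower by the test (-0.48 ± 0.12, edgeR adjusted p = 0.0241), but the genotypes overlapped, and the adjusted p was 0.0531 without KO1, 0.0899 without KO2, 0.0639 without KO3 and 0.0636 without WT3. Without WT3 its log2 fold change was -0.27, against -0.79 with cells of at least 2000 UMIs (adjusted p = 0.0659), and with the title prefix as a covariate the adjusted p was 0.213. Cd63, a membrane protein of granules, was also lower (-0.36). Slc18a2, which pumps histamine and other amines into granules, was higher with 75.2, 81.47 and 74.3 CPM in KO and 61.4, 47.3 and 53.7 CPM in WT (0.42, adjusted p = 0.0438). Cpa3 did not pass (-0.24 ± 0.10, edgeR adjusted p = 0.165), nor did Ctsg with 1624, 1328 and 1473 CPM in KO and 1399, 1083 and 1701 CPM in WT.

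**Figure D3:**
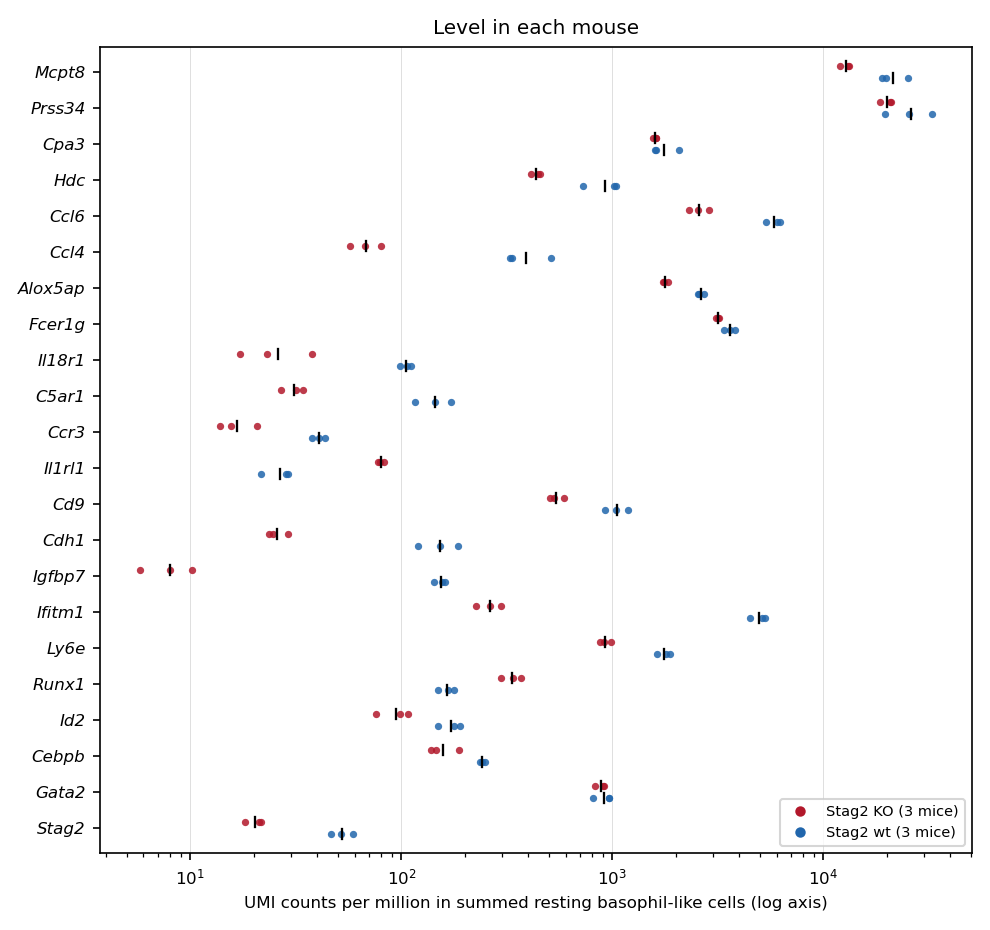
CPM of 22 genes in summed resting basophil-like cells, on a log axis, with 1 dot per mouse (red, upper row of each gene: KO; blue, lower row: WT) and a black bar at each group mean. Ifitm1 and Igfbp7 show the widest gaps, Il1rl1 and Runx1 lie higher in KO, and Gata2 and Cpa3 overlap.

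Of 20 tested signalling genes downstream of the IgE receptor, 4 were lower and 1 was higher in KO, with a median of -0.17, beside 6.0% lower and 2.84% higher over all tested genes. Lat, the adaptor that the receptor's kinases phosphorylate, had 117, 113 and 115 CPM in KO and 148, 154 and 147 CPM in WT (-0.48 ± 0.10, edgeR adjusted p = 0.00534). Fyn, a kinase of the same pathway, had 25.9, 17.7 and 18.2 CPM in KO and 34.98, 40.6 and 29.8 CPM in WT (-0.84 ± 0.18, edgeR adjusted p = 0.00649), and 0.0517 without WT2. Fcer1g, the chain that carries the signal into the cell, had 3182, 3110.5 and 3206 CPM in KO and 3397, 3596 and 3829 CPM in WT (-0.29 ± 0.07, edgeR adjusted p = 0.0166), with an adjusted p of 0.0576 without KO1, 0.0671 without KO2 and 0.0657 without KO3. Lat2, a second adaptor, was lower (-0.33). Plcg1, a phospholipase, was higher with 12.01, 11.3 and 10.002 CPM in KO and 4.28, 5.69 and 4.67 CPM in WT (1.05 ± 0.27, edgeR adjusted p = 0.0212, 0.0957 without KO1 and 0.0865 without WT3). Calls of Lat, Fyn, Fcer1g and Plcg1 did not hold with the title prefix as a covariate, where the adjusted p lay between 0.138 and 0.356. The kinases Lyn and Syk did not pass, with 42.51, 54.1 and 40.3 CPM and 26.8, 30.02 and 23.04 CPM in KO and 42.8, 45.2 and 51.7 CPM and 36.4, 27.4 and 29.2 CPM in WT.

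Receptors for alarm cytokines moved in opposite directions. Il1rl1, the receptor for interleukin 33, had 82.9, 79.3 and 77.9 CPM in KO and 28.6, 21.7 and 29.2 CPM in WT, 3.02-fold higher in KO (1.5004 ± 0.13, edgeR adjusted p = 3.26e-06). Il18r1, a chain of the interleukin 18 receptor whose gene follows Il1rl1 on the same strand (chr1:40429570-40465415, plus strand and chr1:40465552-40500854, plus strand), had 17.2, 23.05 and 37.6 CPM in KO and 111, 107 and 98.4 CPM in WT (-2.10 ± 0.19, edgeR adjusted p = 4.17e-06). In members thinned to 1000 UMIs, Il1rl1 was found in 8.61, 7.75 and 8.66% of KO members and 2.35, 2.56 and 3.42% of WT members, and Il18r1 in 2.57, 3.18 and 4.71% of KO members and 13.2, 11.99 and 11.9% of WT members. In CD3 cells Il18r1 was found in 5.39, 7.72 and 4.91% in KO and 3.33, 6.51 and 5.92% in WT. Il18rap, the accessory chain for interleukin 18, had 103, 127 and 117 CPM in KO and 119.9, 141 and 126 CPM in WT and did not pass (adjusted p = 0.182).

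The 250 bases before the start sites of Il1rl1 that the RefSeq table lists (GRCm38.p6) are shown because this gene rose while its neighbour fell, with the same marking of motifs in capitals.
Il1rl1, first start (chr1:40429320-40429569, plus strand): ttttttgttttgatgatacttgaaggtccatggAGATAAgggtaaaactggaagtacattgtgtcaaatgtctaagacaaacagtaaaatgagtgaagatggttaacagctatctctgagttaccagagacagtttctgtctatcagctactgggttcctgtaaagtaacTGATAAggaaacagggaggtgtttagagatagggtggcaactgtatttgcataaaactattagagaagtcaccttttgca
Il1rl1, second start (chr1:40439379-40439628, plus strand): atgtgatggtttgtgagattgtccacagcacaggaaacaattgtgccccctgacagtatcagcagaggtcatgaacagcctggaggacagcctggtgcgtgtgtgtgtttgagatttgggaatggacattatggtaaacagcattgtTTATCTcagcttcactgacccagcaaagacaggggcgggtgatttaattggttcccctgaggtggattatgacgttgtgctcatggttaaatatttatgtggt
The GATA motif matched 2 times before the first start, at 217 and 80 bases upstream, and 1 time before the second, at 103 bases upstream, and the interferon-stimulated response element matched in neither. The deposited counts are per gene and do not separate the start sites.

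Among all 26 tested receptors of cytokines, growth factors and chemoattractants, 5 were lower and 2 were higher. The median was -0.19, and over all tested genes 6.0% were lower and 2.84% higher. C5ar1, the receptor for the complement fragment C5a, had 26.8, 31.6 and 34.2 CPM in KO and 116, 173 and 144 CPM in WT (-2.34 ± 0.15, edgeR adjusted p = 5.77e-08). Ccr3, the eotaxin receptor of eosinophils and basophils, had 13.9, 15.54 and 20.6 CPM in KO and 37.8, 40.6 and 43.49 CPM in WT (-1.39 ± 0.17, edgeR adjusted p = 4.80e-05). Both were lower in every KO mouse than in any WT mouse. Ccr1 (-0.62) and Crlf2 (-0.51), a chemokine receptor and the receptor for thymic stromal lymphopoietin, were also lower. Ccr2, the receptor for Ccl2, was higher with 273, 299 and 286 CPM in KO and 194, 197 and 170.2 CPM in WT (0.51, edgeR adjusted p = 0.00524). The growth factor receptors of basophils did not pass: Il3ra, which binds interleukin 3, had 171, 183 and 174 CPM in KO and 189, 197 and 174 CPM in WT (-0.19 ± 0.10, edgeR adjusted p = 0.313). Csf2rb, the shared signalling chain whose reads may be split with its close paralog Csf2rb2, had 379, 436 and 418 CPM in KO and 358, 379 and 309 CPM in WT (0.14 ± 0.11, edgeR adjusted p = 0.504).

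Of 12 tested cytokines and chemokines, 8 were lower, 4 did not pass and none was higher in KO, with a median of -0.70, beside 6.0% lower over all tested genes. Ccl6, the most abundant of them and a chemokine for myeloid cells, had 2543, 2875 and 2312 CPM in KO and 5341, 6226 and 6020.5 CPM in WT (-1.29 ± 0.09, edgeR adjusted p = 1.06e-07). Ccl4, an inflammatory chemokine, had 56.98, 67.54 and 80.3 CPM in KO and 336, 512 and 327 CPM in WT (-2.62 ± 0.17, edgeR adjusted p = 7.18e-08). CD3 cells held a mean of 141 CPM in KO and 91.1 CPM in WT. In thinned cells a Ccl4 UMI was found in 6.58, 7.39 and 8.28% of KO members and 29.05, 35.45 and 28.04% of WT members, against 1.68, 9.32 and 2.70% of CD3 cells in KO and 5.09, 4.70 and 4.63% in WT. Ltb, a membrane-bound lymphotoxin chain, had 128, 127 and 111 CPM in KO and 313, 356 and 282 CPM in WT (-1.48 ± 0.12, edgeR adjusted p = 5.39e-07). Csf1, the macrophage growth factor, had 94.9, 80.4 and 94.6 CPM in KO and 141, 159 and 147 CPM in WT (-0.83 ± 0.11, edgeR adjusted p = 0.000109). Osm (-0.89), Ccl3 (-0.56), Ccl9 (-0.47) and Ccl5 (-1.26), a cytokine of the interleukin 6 family and further chemokines, completed the 8. Ccl5 is far higher in CD3 cells, with a mean of 10191 CPM in KO and 10565 CPM in WT, and the part of free RNA in its difference was not tested. Il4, the cytokine by which basophils act on helper T cells, did not pass with 152, 172 and 183 CPM in KO and 183, 196 and 153 CPM in WT (-0.17 ± 0.12, edgeR adjusted p = 0.446). Il6 did not pass either, with 160.5, 168 and 129 CPM in KO and 207, 150.2 and 126 CPM in WT. The call of Ccl6 was lost when the rule was applied after thinning every cell to 2000 UMIs (-0.59, adjusted p = 0.0749).

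Of 14 tested lipid mediator genes, 5 were lower and 1 was higher (median -0.35), beside 6.0% lower and 2.84% higher over all tested genes. Alox5ap, which presents arachidonic acid to 5-lipoxygenase, had 1748, 1836 and 1733 CPM in KO and 2571, 2729.6 and 2550.3 CPM in WT (-0.66 ± 0.07, edgeR adjusted p = 2.66e-05). The lipoxygenase gene Alox5 itself had 210.1, 229 and 218 CPM in KO and 184, 173 and 174 CPM in WT and did not pass (0.21 ± 0.10, edgeR adjusted p = 0.243). Ptger3, a prostaglandin E2 receptor, had 57.6, 65.4 and 48.8 CPM in KO and 104, 121 and 86.1 CPM in WT (-0.97 ± 0.14, edgeR adjusted p = 0.000342). P2ry14 and Ptger4, receptors for UDP-sugars and prostaglandin E2, were lower (-0.54 ± 0.12, edgeR adjusted p = 0.0108, for P2ry14 and -0.70 ± 0.17, edgeR adjusted p = 0.0147, for Ptger4). The adjusted p of P2ry14 was 0.0508 without KO2 and 0.0634 without WT2, and that of Ptger4 was 0.0849 without KO3 and 0.0908 without WT2. Gpr34, a lysophosphatidylserine receptor, was lower (-0.38). Ltc4s, the leukotriene C4 synthase, was higher at very low levels, with 4.62, 5.90 and 7.58 CPM in KO and 1.43, 2.85 and 2.04 CPM in WT (adjusted p = 0.0443).

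Of 32 tested adhesion and surface genes, 15 were lower and 4 were higher in KO, with a median of -0.52, beside 6.0% lower and 2.84% higher over all tested genes. This list, like the others, was chosen with earlier results of these mice known, so its direction is not independent of them. Igfbp7, a secreted protein of the extracellular matrix, had 10.2, 8.04 and 5.76 CPM in KO and 143, 162 and 156 CPM in WT (-4.37 ± 0.16, edgeR adjusted p = 7.96e-11). Cdh1, the adhesion protein E-cadherin, had 28.95, 23.6 and 24.6 CPM in KO and 153, 185 and 120 CPM in WT (-2.65 ± 0.16, edgeR adjusted p = 2.34e-08). In thinned members Igfbp7 was found in 0.959, 0.687 and 0.496% of KO members and 14.1, 14.8 and 14.8% of WT members, and Cdh1 in 3.69, 2.91 and 3.12% of KO members and 15.7, 18.998 and 12.8% of WT members. Cd9, a tetraspanin, had 508, 527 and 593 CPM in KO and 927, 1187 and 1045 CPM in WT (-1.06 ± 0.10, edgeR adjusted p = 7.73e-06). L1cam, a neural-type adhesion protein, had 17.2, 18.2 and 17.3 CPM in KO and 55.7, 44.48 and 39.99 CPM in WT (-1.48 ± 0.16, edgeR adjusted p = 1.51e-05). Integrin genes split, and Itga1 (-3.53), Itgb7 (-1.01) and Itgb2 (-0.49) were lower. Itgb3 was higher with 24.95, 27.3 and 19.4 CPM in KO and 8.57, 13.2 and 11.97 CPM in WT (0.90). Itga2b, which pairs with it, had 288, 293 and 285 CPM in KO and 241, 239 and 216 CPM in WT and did not pass (0.21 ± 0.10, edgeR adjusted p = 0.22). Thy1, Pirb, Cd300a, Cd69, Clec12a, Lilrb4a and Cd55 were among the remaining lower genes, with log2 fold changes between -2.47 (Thy1) and -0.60 (Lilrb4a). Cd34, a sialomucin of progenitors, was higher (49.6, 38.1 and 42.7 CPM in KO and 25.7, 20.997 and 27.1 CPM in WT), as were the paired receptor genes Cd200r1 (0.40) and Cd200r4 (0.44), whose sequences are close enough to each other and to Cd200r3 that reads may be shared. Cnn3, an actin-binding protein, was too low to be tested, with 0, 0 and 0.303 CPM in KO and 2.86, 1.78 and 3.21 CPM in WT.

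The other genes with the largest falls came from unrelated families. Defb40, a beta-defensin, had 3.08, 10.7 and 3.03 CPM in KO and 143, 243 and 152 CPM in WT (-5.31 ± 0.31, edgeR adjusted p = 1.80e-08), the largest fall among the named genes. Gm2a, the lysosomal activator of ganglioside breakdown, had 36.96, 36.4 and 35.8 CPM in KO and 303, 235 and 238 CPM in WT (-2.92 ± 0.13, edgeR adjusted p = 1.07e-09). Ms4a6c, a membrane protein related to Ms4a2, had 20.3, 18.2 and 13.03 CPM in KO and 198, 149 and 198 CPM in WT (-3.51 ± 0.17, edgeR adjusted p = 2.15e-09). Perp, a p53-induced membrane protein (-3.99), Dapk2, a death-associated kinase (-2.92), Glipr2 (-2.85), Trim30b (-2.74) and Trdv2-2, a variable segment of the T cell receptor delta locus (-3.08), had no overlap either. All of these genes kept their call and direction under each of the 16 alternative settings. Hist1h2ap, a histone H2A gene, had 7.70, 12.9 and 13.6 CPM in KO and 41.4, 119 and 70.1 CPM in WT, but histone genes of this cluster are nearly identical, so its counts are uncertain. CD3 cells also differed, with means of 14.2 CPM in KO and 134 CPM in WT.

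Among the named genes the largest rises were smaller than the largest falls. Txnrd1, the cytosolic thioredoxin reductase, had 23.4, 20.4 and 31.2 CPM in KO and 4.28, 7.83 and 9.63 CPM in WT (1.59 ± 0.25, edgeR adjusted p = 0.000621). Gmpr, which converts guanosine to inosine nucleotides, had 42.2, 41.8 and 37.9 CPM in KO and 9.28, 18.1 and 15.8 CPM in WT (1.30 ± 0.18, edgeR adjusted p = 0.000176). Hipk2, a nuclear kinase, had 41.9, 35.4 and 40.01 CPM in KO and 12.1, 13.2 and 17.2 CPM in WT (1.32 ± 0.17, edgeR adjusted p = 7.30e-05). Hsd17b1, a steroid dehydrogenase, had 51.7, 39.1 and 39.4 CPM in KO and 14.99, 17.4 and 16.9 CPM in WT (1.29 ± 0.16, edgeR adjusted p = 7.41e-05). Klk8, a secreted serine protease, had 92.1, 86.8 and 79.7 CPM in KO and 29.99, 29.9 and 27.1 CPM in WT (1.48 ± 0.12, edgeR adjusted p = 1.22e-06). CD3 cells held more of it in both genotypes, with means of 176 CPM in KO and 149 CPM in WT. Mgst1, a microsomal glutathione transferase, had 30.8, 21.98 and 29.1 CPM in KO and 4.28, 2.85 and 12.6 CPM in WT (1.82 ± 0.33, edgeR adjusted p = 0.00216). Without WT3 its log2 fold change was 2.94, and its call was lost with the title prefix as a covariate (adjusted p = 0.0617) and with cells of at least 2000 UMIs (0.0755). F13a1 (1.51), Qrfp (1.32) and Chpt1 (1.27), which encode a coagulation factor subunit, a neuropeptide and a phospholipid enzyme, passed as well, but with the title prefix as a covariate their adjusted p was 0.407, 0.0862 and 0.0944. Nxpe2 had 28.95, 19.8 and 23.6 CPM in KO and 14.99, 0.712 and 0.584 CPM in WT, with WT1 close to the KO mice and far above WT2 and WT3. It rose by the test (2.72 ± 0.56, edgeR adjusted p = 0.00581), with a log2 fold change of 5.07 without WT1 and 0.60 (adjusted p = 0.414) among the XA mice.

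The main lineage factors of basophils did not pass the test, while a few other regulators did. Of 31 tested transcription factors, 4 were higher and 4 were lower, beside 2.84% higher and 6.0% lower over all tested genes. The median of the 31 was 0.11. Gata2, which basophils need for their formation, had 899, 913 and 825 CPM in KO and 967, 962 and 808 CPM in WT and did not pass (-0.15 ± 0.10, edgeR adjusted p = 0.382). The same holds for Cebpa with 629.9, 693 and 761 CPM in KO and 618, 580.4 and 359 CPM in WT (0.32 ± 0.16, edgeR adjusted p = 0.237). Gata1 had 36.96, 40.2 and 40.3 CPM in KO and 30.7, 41.99 and 39.1 CPM in WT and did not pass (-0.07 ± 0.14, edgeR adjusted p = 0.825). Of these 3, Cebpa had no overlap between the genotypes. Runx1, a factor of blood formation that basophils require, was 2.04-fold higher with 371, 295 and 339 CPM in KO and 178, 148 and 166 CPM in WT (0.93 ± 0.11, edgeR adjusted p = 5.52e-05). In thinned members it was found in 32.1, 25.7 and 28.9% of KO members and 16.1, 13.98 and 14.8% of WT members. Tcf4, an E protein, had 51.4, 50.9 and 38.2 CPM in KO and 27.8, 23.8 and 24.8 CPM in WT (0.78 ± 0.15, edgeR adjusted p = 0.00359). Lmo4 (0.39) and Zeb2 (0.45) rose by less. Id2, an inhibitor of E proteins, had 108, 98.6 and 75.8 CPM in KO and 178, 189.7 and 149 CPM in WT (-0.98 ± 0.14, edgeR adjusted p = 0.000212). Cebpb, a factor of granulocyte activation, had 145, 139 and 187 CPM in KO and 239.9, 236 and 249.9 CPM in WT (-0.72 ± 0.12, edgeR adjusted p = 0.00102). Tcf4 and its antagonist Id2 thus changed in opposite directions, although the call of Tcf4 was lost among the XA mice (adjusted p = 0.252). Spi1, the myeloid factor PU.1, was lower (-0.35 ± 0.09, edgeR adjusted p = 0.0277), with an adjusted p of 0.0967 without KO1, 0.0551 without KO2, 0.121 without KO3, 0.076 without WT1 and 0.0672 without WT2, and Lmo2 was lower (-0.42).

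Genes that respond within minutes to stimulation or to cell handling fell without an exception among those that passed. Of 16 tested, 8 were lower and none was higher, with a median of -0.56, beside 6.0% lower and 2.84% higher over all tested genes. Klf2 had 16.9, 16.1 and 16.4 CPM in KO and 31.4, 33.45 and 32.98 CPM in WT (-1.09 ± 0.15, edgeR adjusted p = 0.000189). Junb had 78.55, 73.97 and 73.3 CPM in KO and 119, 137 and 109 CPM in WT (-0.79 ± 0.11, edgeR adjusted p = 0.000266). Jund had 153, 177 and 140 CPM in KO and 236, 241 and 196 CPM in WT (-0.62 ± 0.12, edgeR adjusted p = 0.00359). All 3 encode transcription factors. Ier5 (-0.73), Klf6 (-0.48), Ier3 (-0.87), Jun (-0.81) and Dusp1 (-1.55) were the others, whereas Fos, Fosb, Egr1 and Nr4a1 were too low to be tested. With cells of at least 2000 UMIs the calls of Junb, Jund and Ier5 were lost (adjusted p = 0.159, 0.201 and 0.345).

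Of 13 tested cohesin genes Stag2 passed, and the median was 0.21. This count, and those of the replication, cell cycle and apoptosis lists, stand beside 8.84% called over all tested genes, and none is read as particular to its list. The loader Nipbl had 80.4, 83.6 and 83.96 CPM in KO and 56.4, 65.1 and 57.2 CPM in WT (adjusted p = 0.0523). Of 23 replication genes 1 passed (median -0.13), namely Tyms, thymidylate synthase, with 77.6, 58.4 and 78.8 CPM in KO and 37.1, 38.8 and 49.6 CPM in WT (0.66 ± 0.14, edgeR adjusted p = 0.00838), and 0.0534 without KO3. Of 10 cell cycle inhibitors and D cyclins, Ccnd2 was higher (0.48 ± 0.11, edgeR adjusted p = 0.0138) and Cdkn2d lower (-0.44 ± 0.10, edgeR adjusted p = 0.0126), with a median of 0.08. The adjusted p of Ccnd2 was 0.0775 without KO1, 0.0818 without KO3 and 0.0648 without WT2, and that of Cdkn2d was 0.0657 without KO3. Of 12 apoptosis regulators only the survival gene Bcl2 passed (median -0.12), with 108, 86.3 and 96.4 CPM in KO and 52.1, 45.2 and 56.6 CPM in WT (0.82 ± 0.12, edgeR adjusted p = 0.000493). With cells of at least 2000 UMIs its adjusted p was 0.0958.

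Some markers of other cell types moved with the genotype. The counts of called markers below stand beside 2.84% higher and 6.0% lower over all tested genes. The 16 neutrophil markers summed to 3372, 2645 and 4729 CPM in KO and 2052, 1643 and 4277 CPM in WT, which exceeds Cpa3 in every mouse. Ctsg is in this list and also among the granule genes above. It held 1624, 1328 and 1473 CPM of the sum in KO and 1399, 1083 and 1701 CPM in WT. At least 3 UMIs of the neutrophil list were found in 73.7, 78.7 and 65.1% of KO members and 28.7, 25.6 and 35.9% of WT members, without overlap. Members of KO mice also had more UMIs per cell, and these shares were not thinned to equal depth. The part of depth and of Ctsg in them was not tested. Of 13 tested Lcn2, Chil3 and Fcnb were higher and Retnlg was lower in KO. Lcn2, a siderophore-binding granule protein, had 108, 113 and 172 CPM in KO and 41.4, 38.1 and 65.1 CPM in WT (1.31 ± 0.20, edgeR adjusted p = 0.000547). Ly6g lay between 0 and 1.46 CPM and S100a8 followed the mouse, with 105, 139 and 749.5 CPM in KO and 27.8, 22.1 and 753 CPM in WT. The part of neutrophil RNA in the difference of Lcn2 was not tested. Of 9 tested monocyte markers F13a1 and Ccr2 were higher and Ms4a6c and Slpi were lower. The 13 listed markers summed to 564, 792 and 587 CPM in KO and 982, 878 and 1022 CPM in WT. Cd14, a further member of the list, was at 0 in KO and below 1 CPM in WT. Lyz2, of the same list, had 131, 337 and 175 CPM in KO and 188, 67.6 and 167 CPM in WT. It did not pass (edgeR adjusted p = 0.404), and its mean in CD3 cells was 50.1 CPM in KO and 168 CPM in WT. Slpi, a protease inhibitor, was abundant itself with 93.6, 92.2 and 79.1 CPM in KO and 356, 439 and 448 CPM in WT (-2.34). Of the B cell list only the light chain gene Igkc passed, with 161, 184 and 195 CPM in KO and 603, 249 and 1450.2 CPM in WT. Its mean in CD3 cells was 177 CPM in KO and 1299 CPM in WT. Of 9 tested T and NK genes Cd7, Ccl5 and Trbc2 were lower. Cd7 had 239, 214 and 263 CPM in KO and 761, 932 and 761 CPM in WT, while Cd8a stayed below 2 CPM. The summed list had 771, 618 and 794 CPM in KO and 1292, 1448 and 1529 CPM in WT. For eosinophils Siglecf (-1.36) and Ccr3 were lower of 8 tested, and the erythroid list had 3 lower of 8 tested, with sums of 109, 116 and 84.9 CPM in KO and 139.9, 152 and 134 CPM in WT. The mast cell, dendritic, megakaryocyte and stem cell lists had 1, 3, 2 and 3 genes past the test out of 4, 9, 6 and 10. With likely doublets removed, 846 genes passed in the main comparison.

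Members differed among themselves with their UMI count, and so did the effect of the genotype. Each library was split at the median UMI count of its own members, a comparison added after the data had been seen, which gave median counts of 5004, 5409 and 4931.5 UMIs in KO and 3603, 3667.5 and 2856.5 UMIs in WT above the median, and 2701, 2999 and 2702 UMIs in KO and 2087.5, 2253 and 1416 UMIs in WT at or below it. Members above the median are called larger and the others smaller below, by UMI count alone. The sides were not matched in depth between the genotypes. RNA content and capture both set the UMI count, and they cannot be told apart here. Above the median 550 of 8319 genes passed between the genotypes (6.61%), with 1.71% higher and 4.9% lower, and 27.0% of genes did not overlap. At or below it 586 of 6273 passed (9.34%), with 3.75% higher and 5.6% lower, and 26.0% of genes did not overlap. The difference between the 2 log2 fold changes, tested with the mouse as a block, passed for 120 of 7235 genes (1.66%), 20 with a positive (0.276%) and 100 with a negative difference (1.38%). The ± values and adjusted p of such differences come from a model that shares dispersion among genes. They do not measure the spread of a gene among the mice, which can be wider.

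Mcpt8 and Prss34 fell by the test in the larger members and not in the smaller ones, and the difference between the sides passed for both. UMIs of both genes also count in the totals that set the split. Mcpt8 had 16865, 15763 and 16923 CPM in KO and 25357, 27107 and 33271 CPM in WT above the median, with no overlap. At or below the median it had 5111, 3969 and 4746 CPM in KO and 3775, 4643 and 4981 CPM in WT, and the groups overlapped. The log2 fold changes were -0.91 and 0.00, and their difference was -0.88 ± 0.07, edgeR adjusted p = 1.58e-20. Prss34 had 27689, 25839.5 and 28543 CPM in KO and 35302, 28183 and 44354 CPM in WT above the median, where the groups overlapped, with KO3 above WT2. At or below it Prss34 had 5069, 3478 and 4167 CPM in KO and 2717, 1466 and 3463 CPM in WT. For Prss34 the smaller members of KO mice were thus the higher ones, by 0.69 on the log2 scale (edgeR adjusted p = 0.0114) against -0.52 in the larger ones (adjusted p = 0.00896), a difference of -1.22 ± 0.08, edgeR adjusted p = 5.87e-27. CD3 cells held a mean of 1667 CPM of Prss34 in KO and 1089.7 CPM in WT, as free RNA or in doublets, and the part of such RNA in the level of the smaller members was not tested. Cpa3 also had a negative difference (-0.47 ± 0.08, edgeR adjusted p = 7.57e-06) without passing on either side, and so did Apoe, an apolipoprotein (-1.15 ± 0.13, edgeR adjusted p = 6.41e-12), with 258, 229 and 201 CPM in KO and 147, 103 and 133 CPM in WT in the smaller members. Lcn2 was also split, with log2 fold changes of 1.20 and 2.70 above and at or below the median (-1.47 ± 0.35, edgeR adjusted p = 0.00772). Negative differences were found as well for Cdh1 (-0.83 ± 0.22, edgeR adjusted p = 0.0222), Il18r1 (-0.97 ± 0.24, edgeR adjusted p = 0.00837), Ltb (-0.77 ± 0.13, edgeR adjusted p = 1.73e-05), Ccl4 (-0.72 ± 0.16, edgeR adjusted p = 0.00278) and Ubac2 (-0.84 ± 0.24, edgeR adjusted p = 0.0421).

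Other falls were deeper in the smaller members. Ifitm1 had 251, 277 and 254 CPM in KO and 3658, 3682 and 3230.2 CPM in WT above the median. At or below it the gene had 287, 123 and 389.5 CPM in KO and 9066, 8093 and 7704 CPM in WT. In every WT mouse the level was thus higher among members with fewer UMIs, whereas it was higher there in KO1 and KO3 and lower in KO2. The difference of the log2 fold changes was 1.08 ± 0.11, edgeR adjusted p = 2.04e-13. Id2 had 91.6, 84.45 and 70.8 CPM in KO and 290, 269 and 207 CPM in WT at or below the median. Above it Id2 had 115, 105 and 78.1 CPM in KO and 131, 152 and 126 CPM in WT (1.08 ± 0.15, edgeR adjusted p = 1.01e-07). The differences of Gm2a (1.51 ± 0.21, edgeR adjusted p = 6.60e-08), Ms4a6c (1.58 ± 0.34, edgeR adjusted p = 0.00152), Ly6e (0.82 ± 0.08, edgeR adjusted p = 6.33e-15), Hdc (0.60 ± 0.09, edgeR adjusted p = 2.40e-07) and Srgn (0.36 ± 0.08, edgeR adjusted p = 0.000777) had the same sign. Hdc still fell among the larger members, with 378, 397 and 420 CPM in KO and 559, 811 and 754 CPM in WT. Ccl6 had nearly the same log2 fold change on both sides, -1.28 and -1.30, and the difference did not pass (0.05 ± 0.07, edgeR adjusted p = 0.879). The same was true of Il1rl1 (1.54 and 1.45), Runx1 (0.89 and 1.06) and Cd9 (-1.10 and -0.997), with adjusted p of 0.91, 0.827 and 0.879 for the difference. Leaving out 1 library gave 51 (without KO3) to 121 genes (without WT2) with a difference between the sides, with 58 genes without KO1 and 60 without KO2.

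**Figure D4:**
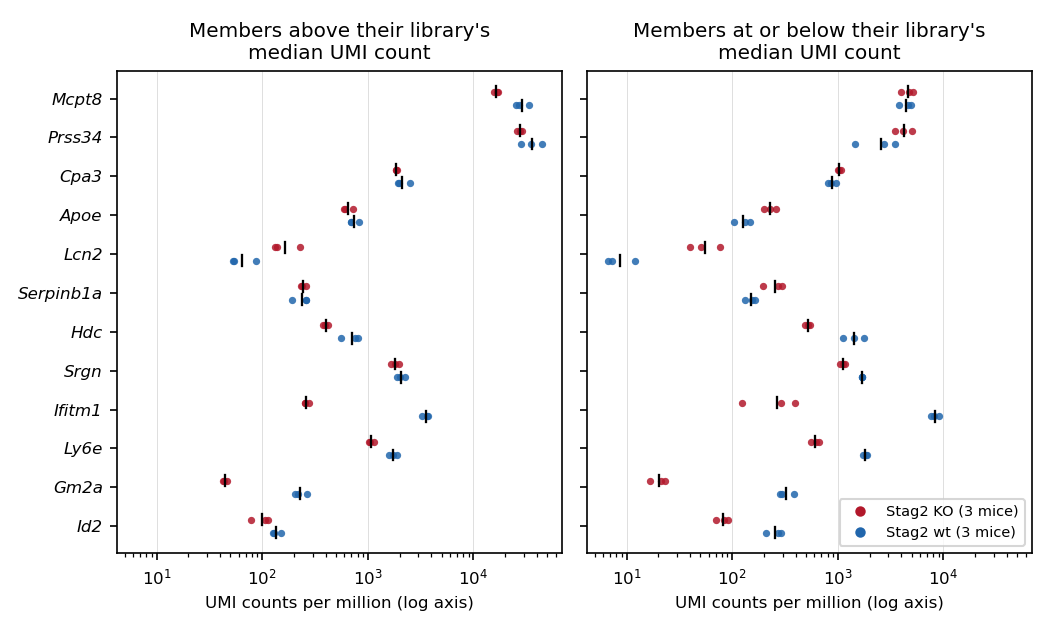
CPM of 12 genes in members above (left) and at or below (right) the median UMI count of the members of their own library, on a log axis, with 1 dot per mouse (red, upper: KO; blue, lower: WT) and a black bar at each group mean. Mcpt8 separates the genotypes on the left and overlaps on the right, Prss34 lies higher in KO on the right, and Ifitm1, Ly6e, Gm2a and Id2 are farther apart on the right.

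Dividing basophil-like cells were set against the resting ones to find genotype differences that differed between these groups of cells. The dividing cells had median counts of 9304, 10034 and 9019 UMIs in KO and 8486, 9105 and 6686.5 UMIs in WT, above those of the resting members. Cells with 1 or 2 UMIs of the cell cycle genes were in neither group. Division and UMI count cannot be told apart in these differences. In the dividing cells 263 of 7846 genes passed between the genotypes (3.35%), 0.714% higher and 2.64% lower, and 22.6% of genes did not overlap. The difference between resting and dividing cells in the log2 fold change passed for 41 of 8940 genes (0.459%), 18 positive (0.201%) and 23 negative (0.257%). Without KO1 this count was 13, without WT1 it was 22 and without WT3 it was 101. Hdc and Ccl6 fell in resting cells and did not pass in dividing ones: in dividing cells Hdc had 282, 277 and 302 CPM in KO and 245, 347 and 338 CPM in WT. Ccl6 had 250.2, 352 and 237 CPM in KO and 434, 262 and 373 CPM in WT, and both overlapped. The difference of the log2 fold changes, resting minus dividing, was -0.94 ± 0.11, edgeR adjusted p = 1.30e-06, for Hdc and -0.82 ± 0.12, edgeR adjusted p = 0.000223, for Ccl6. Junb behaved alike, with 40.4, 29.9 and 43.9 CPM in KO and 32.1, 41.2 and 30.7 CPM in WT in dividing cells (-0.81 ± 0.18, edgeR adjusted p = 0.0235). Ifitm1 fell at both stages, with 164, 126 and 129.6 CPM in KO and 1265, 755 and 1251 CPM in WT in dividing cells, and more so in resting cells (-1.28 ± 0.14, edgeR adjusted p = 9.01e-07).

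Mcpt8, Prss34, Cpa3 and Serpinb1a had differences of the opposite sign to that of Hdc. In dividing cells Mcpt8 had 17088, 17313 and 20987 CPM in KO and 42166, 49577 and 36221 CPM in WT. Prss34 had 25804, 28529 and 35815 CPM in KO and 54144, 58983 and 47400.3 CPM in WT, both without overlap. Their falls were larger there than in resting cells, with differences of 0.50 ± 0.10, edgeR adjusted p = 0.00772, and 0.53 ± 0.12, edgeR adjusted p = 0.0354. Cpa3 (0.55 ± 0.13, edgeR adjusted p = 0.0338) and Serpinb1a, an inhibitor of granule proteases (1.04 ± 0.13, edgeR adjusted p = 9.68e-06), fell in dividing cells and did not pass in resting ones. Cdh1 had 3.10, 4.43 and 2.20 CPM in KO and 76.98, 70.8 and 45.3 CPM in WT in dividing cells, and its fall was larger there (1.79 ± 0.34, edgeR adjusted p = 0.00413). Irf8, a factor of monocyte and dendritic cell fate, had 20.49, 23.3 and 27.1 CPM in KO and 64.1, 35.9 and 129 CPM in WT in dividing cells (1.58 ± 0.24, edgeR adjusted p = 0.000223), while the resting groups overlapped.

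F13a1, Mgst1, Cmc2 and Bcl2 were higher in KO at rest and did not pass in dividing cells. Their differences were positive, for F13a1 (2.37 ± 0.39, edgeR adjusted p = 0.000718), Mgst1 (1.81 ± 0.32, edgeR adjusted p = 0.00185), the mitochondrial assembly factor Cmc2 (0.92 ± 0.15, edgeR adjusted p = 0.000534) and Bcl2 (0.77 ± 0.16, edgeR adjusted p = 0.0114), and so was that of Tmsb10, which binds actin (0.32 ± 0.07, edgeR adjusted p = 0.0286) and passed at neither stage alone. At rest the call of Cmc2 was lost with the title prefix as a covariate (adjusted p = 0.171) and among the XA mice (0.0972). In dividing cells Bcl2 had 91.9, 81.99 and 108 CPM in KO and 64.1, 82.9 and 92.96 CPM in WT. Gstm1, a glutathione transferase, ran the other way, with 188, 187 and 257 CPM in KO and 88.53, 84.003 and 133 CPM in WT in dividing cells. In resting cells it had 218, 273 and 251 CPM in KO and 321, 281 and 398 CPM in WT (-1.45 ± 0.15, edgeR adjusted p = 1.40e-07). Its adjusted p at rest was 0.0996 without KO1, 0.0607 without KO3 and 0.0691 without WT3. Csf2rb2, the receptor chain specific to interleukin 3 in the mouse, had 55.9, 23.3 and 36.6 CPM in KO and 14.1, 17.4 and 16.99 CPM in WT in dividing cells (-1.34 ± 0.20, edgeR adjusted p = 0.000223). Both Gstm1 and Csf2rb2 have close paralogs, so reads may be split between copies. The differences between the stages of Stag2 (0.15 ± 0.26, edgeR adjusted p = 0.948) and of Il1rl1 (0.37 ± 0.20, edgeR adjusted p = 0.712) did not pass.

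**Figure D5:**
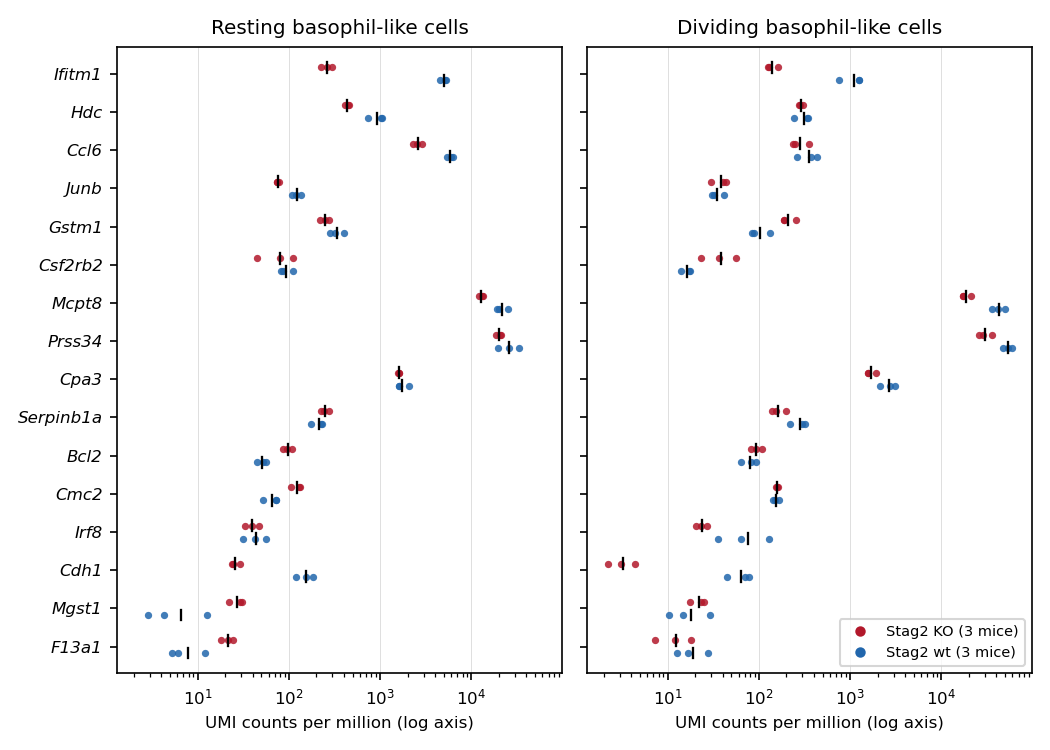
CPM of 16 of the 17 named genes with a difference between stages (Tmsb10 is not drawn) in resting (left) and dividing (right) basophil-like cells, on a log axis, with 1 dot per mouse (red, upper: KO; blue, lower: WT) and a black bar at each group mean. Hdc and Ccl6 separate the genotypes in resting cells and overlap in dividing cells, while Mcpt8, Prss34, Cpa3 and Serpinb1a are farther apart in dividing cells.

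Against cells without any UMI of the 4 basophil genes, a mixture of progenitors whose makeup may itself differ between the genotypes, the difference in log2 fold change passed for 634 of 11312 genes (5.6%), 260 positive (2.3%) and 374 negative (3.31%). Those cells were chosen by the absence of genes of which Fcer1a, Cd200r3 and Cyp11a1 were lower in KO members. The part of this choice in the differences was not tested. Within those cells 1119 of 12259 genes passed (9.13%), 3.12% higher and 6.0% lower, and 27.1% of genes did not overlap. With RLE in place of TMM factors 198 were positive and 447 negative. The genotype effect on Ifitm1 was larger in the members than in those cells, which had 92.1, 87.7 and 114 CPM in KO and 279.7, 259.7 and 261 CPM in WT (-2.85 ± 0.07, edgeR adjusted p = 2.95e-20). The same held for Gm2a (-1.78 ± 0.13, edgeR adjusted p = 3.95e-10). Hdc, which those cells express at a low level, had 72.2, 60.1 and 77.9 CPM in KO and 17.6, 18.9 and 29.6 CPM in WT there, so its direction was opposite (-2.83 ± 0.13, edgeR adjusted p = 2.84e-14). Cpa3 (-1.64 ± 0.09, edgeR adjusted p = 8.36e-13) and Gstm1 (-1.94 ± 0.14, edgeR adjusted p = 5.65e-10) had the same sign of difference. Bcl2 was the reverse case, with 119, 125 and 110.4 CPM in KO and 203, 186 and 165 CPM in WT in those cells (1.49 ± 0.13, edgeR adjusted p = 1.56e-08). F13a1 (2.65 ± 0.27, edgeR adjusted p = 1.55e-07), Apoe (1.20 ± 0.10, edgeR adjusted p = 8.75e-09) and Tmsb10 (1.07 ± 0.09, edgeR adjusted p = 1.51e-08) also had positive differences. Ubac2, a protein of the endoplasmic reticulum, had 68.998, 95.9 and 75.2 CPM in KO and 22.1, 34.2 and 36.49 CPM in WT in the members (1.19 ± 0.17, edgeR adjusted p = 0.000235). Those cells had 30.7, 35.54 and 29.999 CPM in KO and 40.9, 42.2 and 36.9 CPM in WT (1.53 ± 0.15, edgeR adjusted p = 1.17e-07). Without KO1 the number of genes with a difference was 318.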

How the data were processed

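UMI counts per cell and gene from 3' single-cell libraries (10x Chromium v2, per the labels) were used as deposited by the authors, 1 table per mouse with cells in rows. How reads were aligned and counted, and on which build, was not given in the sources used here. Of 18011 symbols, 17438 were paired with a mouse symbol of GENCODE release M21.

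The members and the gene lists were chosen with earlier results of these data known. Counts of the members of each mouse were summed and tested with edgeR 4.0.16 in R 4.3.3 (TMM factors, filterByExpr, quasi-likelihood test, Benjamini-Hochberg adjustment over all genes tested, calls at 0.05). The standard error of a log2 fold change is its size divided by the square root of the F statistic. It comes from the fitted model, which shares dispersion among genes, so neither it nor the p-value is the spread of that gene among the mice. Differences between cell groups were tested as interactions with the mouse as a block. The split at each library's median UMI count was added after the data had been seen. The median UMI count of the members and their summed depth in each mouse are given with the results. Binomial intervals are exact (Clopper-Pearson, 95%), and they cover counting error only.

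Genes were named by this rule: the 12 largest changes in each direction among called genes without overlap and with at least 20 CPM in the higher group, leaving out rule genes, predicted genes, sex-linked and mitochondrial genes; up to 4 called members of each list; a fixed set of basophil genes; and the 5 smallest p in each direction of each difference test. Other list members that are named were chosen after their values were seen. Doublets were scored against simulated ones and kept, and an alternative removed 0.8% of cells per 1000 cells. Other alternatives were DESeq2 1.42.0, RLE factors, no low-count filter, a gate of at least 6 UMIs, a gate without Fcer1a, a gate after thinning to 2000 UMIs, cells with at least 2000 UMIs, the title prefix, and each library left out. The edgeR steps were tested on simulated data. Promoter sequences are RefSeq's, on GRCm38.p6. Cell handling used Python 3.11.15. A few members of the gene lists are counted in their lists and not reported here by name.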

Additional observations from a re-analysis of the deposited data

Results flagged for a closer look

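The size of the genotype effect differed between cell groups for the following genes, each by a test of the difference itself with the mouse as a block. Values are differences of 2 log2 fold changes of KO over WT.

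Resting minus dividing basophil-like cells, the difference was negative for Ifitm1 (-1.281), Hdc (-0.939), Ccl6 (-0.82), Junb (-0.808), Gstm1 (-1.449) and Csf2rb2 (-1.341). It was positive for Cdh1 (1.788), Mgst1 (1.809), F13a1 (2.372), Mcpt8 (0.504), Prss34 (0.53), Bcl2 (0.773), Cpa3 (0.554), Serpinb1a (1.038), Irf8 (1.575), Cmc2 (0.917) and Tmsb10 (0.323). A positive value stands for a smaller fall at rest for Mcpt8, Prss34 and Cdh1, and for a rise at rest for F13a1, Mgst1, Cmc2 and Bcl2. The dividing cells had more UMIs per cell, and the part of UMI count in these values was not tested.

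Resting members minus cells without any UMI of the 4 basophil genes, it was negative for Ifitm1 (-2.85), Gm2a (-1.777), Hdc (-2.826), Cpa3 (-1.639) and Gstm1 (-1.942). It was positive for F13a1 (2.648), Bcl2 (1.491), Apoe (1.197), Tmsb10 (1.07) and Ubac2 (1.526). The makeup of the cells without these UMIs was not resolved here, and its part in these values was not tested.

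Members above minus members at or below the median UMI count of their library, it was positive for Ifitm1 (1.079), Ms4a6c (1.582), Gm2a (1.508), Hdc (0.595), Srgn (0.364), Id2 (1.078), Ly6e (0.821) and Gstm1 (0.732). It was negative for Cdh1 (-0.829), Lcn2 (-1.474), Mcpt8 (-0.878), Prss34 (-1.223), Il18r1 (-0.974), Ccl4 (-0.719), Ltb (-0.774), Cpa3 (-0.471), Serpinb1a (-0.76), Apoe (-1.148), Tmsb10 (-0.268) and Ubac2 (-0.842). The median UMI count of the members lay between 3465 and 3810 in KO and between 1865 and 2826 in WT, and the part of depth in these values was not tested.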

How the results depend on the processing

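No paired analysis was possible because the labels give the genotypes no shared replicate numbers. Of 79 named genes tested, 65 passed in the main comparison, 38 of these kept their call and direction under all 16 alternatives, and 53 without each library in turn. The 791 genes of the main comparison became 291 with cells of at least 2000 UMIs, 187 with the title prefix as a covariate, 231 among the XA mice alone, 546 with DESeq2 (128 higher and 418 lower), 529 with the gate applied after thinning and 1104 without a low-count filter. Leaving out 1 library gave 491 to 785. In both the prefix and the XA setting the genotype effect rests on WT1 as the single WT mouse. Members above the library median gave 550 genes and those at or below it 586. The 41 genes with a difference between resting and dividing cells became 83 without a low-count filter and 21 with the gate without Fcer1a, and 13 to 101 with 1 library left out. The 634 genes with a difference from cells without the basophil genes became 318 to 599 with 1 library left out, and 814 with doublets removed (239 positive and 575 negative). The 120 genes with a difference between the sides of the median became 51 to 121 with 1 library left out. The mean share in WT was 16.7% with a gate of at least 6 UMIs. With the gate after thinning the shares were 17.2% to 21.4% in KO and 13.8% to 20.2% in WT, and among cells of at least 2000 UMIs 16.8% to 20.9% in KO and 12.04% to 17.7% in WT.

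Direction changed for genes without a clear effect and for Tyms and Gstm1, which had passed. With the gate after thinning the log2 fold change was -0.0011 for Tyms, 0.028 for Gata2, 0.070 for Il4, 0.087 for Gstm1 and 0.19 for Csf2rb2. For Gata1 it was 0.0082 with cells of at least 2000 UMIs, 0.24 with the prefix as a covariate and 0.24 among the XA mice, and -0.15 to 0.0075 with 1 library left out, the highest without WT2. For Irf8 it was -0.49 to 0.033 with 1 library left out, the highest without WT3. The cause was not tested. Depth limits the genes near the filter, where 8949 of 18011 symbols could be tested.

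Among the 65 named genes that passed, the call was lost with the title prefix as a covariate for Nxpe2, Mgst1, F13a1, Qrfp, Chpt1, Srgn, Prss34, Lat, Fyn, Fcer1g, Plcg1, P2ry14, Ptger4, Tcf4, Ier5, Ifitm2, Tyms, Cdkn2d, Ccnd2, Bcl2, Spi1, Cmc2 and Gstm1. With WT1 as the only WT mouse in that contrast, the prefix and the loss of WT mice cannot be told apart. The call was lost with cells of at least 2000 UMIs for Mgst1, Lcn2, Prss34, Fyn, Fcer1g, Plcg1, P2ry14, Ptger4, Tcf4, Junb, Jund, Ier5, Tyms, Cdkn2d, Ccnd2, Bcl2, Spi1 and Gstm1, and with the gate after thinning for Fyn, Fcer1g, Ccl6, P2ry14, Ptger4, Junb, Jund, Ier5, Tyms, Cdkn2d, Bcl2, Spi1 and Gstm1.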

Other observations

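Prg2, the major basic protein gene of eosinophils, split the mice without regard to genotype. Resting members had 607, 6.43 and 627 CPM in KO1, KO2 and KO3 and 453, 10.3 and 518 CPM in WT1, WT2 and WT3, so that KO2 and WT2 were nearly without it. The means in CD3 cells were 12.98 CPM in KO and 28.2 CPM in WT. S100a8 was high in KO3 and WT3, with 749.5 CPM in KO3 and 753 CPM in WT3, and at most 139 CPM in the other mice. Both genes were singled out after their values were seen.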
